A study of Mus musculus with 15 samples.

Results

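The core circadian clock genes were 9 transcripts, chosen by gene name from the platform annotation. Earlier results of these data were known when they were chosen. Arntl (also called Bmal1), Clock and Npas2 code for the activators of the loop, Per1, Per2, Per3, Cry1 and Cry2 for its repressors, and Rora for a nuclear receptor of the loop that regulates Arntl. The annotation paired these symbols with 29 probe sets, out of 34945 probe sets paired with 1 gene each and 18193 genes in all. Arntl had 2 probe sets, Clock 4, Npas2 2, Per1 1, Per2 3, Per3 6, Cry1 1, Cry2 1 and Rora 9. No probe set of these genes was paired with several genes, and all 29 probe sets and all 9 genes passed the filter that left out the lowest 25% of mean values. Each gene is represented below by its probe set with the highest mean, and its other probe sets are given after it.

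The samples were auditory nerves of CBA/CaJ mice aged 5 to 12 weeks, an inbred strain with good hearing, housed under a 12-hour light and dark cycle. The groups, each of 3 arrays, were unexposed control mice and noise-exposed mice sampled immediately, 1 day, 7 days and 14 days after exposure. The noise was an octave band from 8 to 16 kHz, given at 106 dB SPL for 2 hours. Each array held the RNA of both ears of 1 mouse, from the modiolus with the auditory nerve stripped of its bone shell and lateral wall and of most sensory epithelium. The labels name no transgene, deletion or drug in any group. The 3 control mice were female and the 3 mice at 1 day were male, the immediate group held 2 females and 1 male, and the 7-day and 14-day groups each held 2 females and 1 male. The labels give no clock time of sampling, and no time of day could be set beside a level.

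The mammalian clock is a loop of transcription and translation that runs in nearly every cell. The proteins of Arntl and Clock (or Npas2, a relative of Clock) bind as a pair to E-box sequences and switch on the Period and Cryptochrome genes, whose proteins return to the nucleus and block that pair. In tissues with a running clock, Arntl and Npas2 transcripts peak at about the time of day when Per2 transcripts are low. A second loop couples Arntl to the ROR activators and the REV-ERB repressors, which compete for the same response element. Output transcription factors such as Dbp act on D-boxes. Per1 and Per2 also respond to cAMP signalling and to glucocorticoids. The cochlea has its own clock, and the auditory nerve carries signals of the spiral ganglion neurons from the cochlea to the brain.

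Promoter sequences of the members are shown because the arms of the loop are known to be driven through different response elements. RefSeq promoter windows of GRCm38.p6, from 250 bases before to 50 bases after a transcription start, were found for 8 of the 9 genes in 12 windows, and Per2 was not matched. The motifs searched on both strands were the E-box CACGTG, the D-box TTATGTAA, the CRE core TGACGTC, a site of cAMP-responsive factors, and the core of the ROR response element, TAGGTCA, and no match overlapped another motif's match. The sequences that follow run 5′ to 3′ on the strand of the gene, with the motif in capitals. The first 4 are the bases before the start, and the last is a stretch around the motif of Arntl. They lie at chr11:69098699-69098948 (+), chr11:69099902-69100151 (+), chr4:151044666-151044915 (-), chr10:85185055-85185304 (-) and chr7:113207527-113207556 (+).
Per1, first start, E-box: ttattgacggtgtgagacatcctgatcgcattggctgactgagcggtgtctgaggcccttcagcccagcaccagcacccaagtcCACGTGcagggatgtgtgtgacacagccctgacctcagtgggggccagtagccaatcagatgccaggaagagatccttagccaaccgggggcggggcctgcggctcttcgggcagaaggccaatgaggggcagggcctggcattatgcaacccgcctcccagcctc
Per1, second start, CRE core: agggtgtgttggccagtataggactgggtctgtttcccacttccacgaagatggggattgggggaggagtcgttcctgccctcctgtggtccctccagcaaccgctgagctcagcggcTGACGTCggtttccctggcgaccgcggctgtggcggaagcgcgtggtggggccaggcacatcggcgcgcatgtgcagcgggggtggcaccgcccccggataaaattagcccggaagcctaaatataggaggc
Per3, 2 D-boxes: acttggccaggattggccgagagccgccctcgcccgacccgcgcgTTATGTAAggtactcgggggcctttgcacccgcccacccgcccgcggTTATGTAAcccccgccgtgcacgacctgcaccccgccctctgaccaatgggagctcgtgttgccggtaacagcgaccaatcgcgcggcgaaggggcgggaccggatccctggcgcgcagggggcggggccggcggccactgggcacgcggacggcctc
Cry1, E-box: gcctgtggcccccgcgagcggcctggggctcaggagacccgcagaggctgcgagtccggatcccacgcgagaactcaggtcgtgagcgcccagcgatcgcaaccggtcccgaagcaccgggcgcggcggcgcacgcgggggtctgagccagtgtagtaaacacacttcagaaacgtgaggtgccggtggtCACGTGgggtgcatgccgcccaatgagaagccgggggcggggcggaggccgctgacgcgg
Arntl, ROR element core: gggaaggcagaaagTAGGTCAgggacggag

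The E-box stood at position -166 from the first start of Per1 and at -60 from the start of Cry1. It was held by 7.15% of all 32851 windows. The D-boxes of Per3 began at -205 and -158, and 0.938% of windows held that motif. The CRE core of Per1 began at -132 from the second start, and 3.21% of windows held it. The element of Arntl began at position 31 after the start, and 2.61% of windows held it. No match was found in the windows of Clock, Npas2, Cry2 and Rora, which says only that these letters were not in those windows.

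The deposited values were log2 intensities from 2.06 to 14.63, and the array medians lay between 5.87 and 5.92. Arrays have no read depth, and with 3 per group it is their number that limits the precision. Neuron markers had a mean level between 10.99 and 11.29 on every array, and Schwann cell markers between 11.18 and 11.62. The 5 of 8 hair cell markers that passed the filter averaged between 5.09 and 6.52. Macrophage markers moved with the 1-day group: 7 of 10 were higher at 1 day than in controls, with a median difference of 1.09, and their mean level ran from 8.13 to 8.26 at 1 day against 6.96 to 7.30 in controls. At 7 days that level ran from 6.89 to 7.62. Against the immediate group 9 of the 10 were higher at 1 day, and 8 of the 10 were lower at 7 days than at 1 day. Of 7 Schwann cell markers tested, S100b, Ncmap and Fa2h were lower at 1 day than in controls, and the mean level of the list ran from 11.18 to 11.34 at 1 day against 11.40 to 11.44 in controls. Of 6 bone markers tested, Ibsp and Dmp1 were lower at 1 day than in controls, with a list median of -0.89 and a mean level from 7.45 to 7.82 at 1 day against 8.10 to 9.498 in controls. Of 10 neuron markers, Uchl1 was higher at 1 day than in controls (0.53) and Calb2 lower (-0.25), and against the immediate group Nefl, Nefm, Nefh and Calb2 were lower and Uchl1 higher. Each comparison with the 1-day group carries these shifts and the sex difference, and their part in its results was not tested. In a tissue made of several cell types, fewer cells of a type and less RNA per cell cannot be told apart.

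Among the core clock genes, each taken by its representative probe set, the differences that passed the test were those of Per2, Per1 and Cry2. In the fit over every probe set, probe sets of Npas2 and Rora were also called, and the arms were not compared by a test. Per2 was higher 1 day after noise than in controls and than immediately after noise, and Per2, Per1 and Cry2 were lower at 7 days than at 1 day. Differences were tested with limma over 13644 genes, and a call was an adjusted p under 0.05. Across the 5 groups, the moderated F test called 1 of the 9 genes, Per2 (adjusted p = 0.00101), where it called 6.75% of all genes tested. Leaving out 1 array added Per1 (without 1-day replicate 1), Cry2 (without 7-day replicate 1) or Npas2 (without 14-day replicate 3). The next smallest adjusted p was that of Cry2, at 0.0558, and Per3 had the largest, at 0.919. Against controls, 0 of 9 genes were called immediately after noise, 1 of 9 at 1 day, and 0 of 9 at 7 and at 14 days. The share of all genes called was 0.931% immediately, 3.18% at 1 day, 0.022% at 7 days and 0% at 14 days. At an unadjusted p under 0.05 the counts of core clock genes were 1, 3, 3 and 2 in the same order of times, beside 15.5%, 17.9%, 11.2% and 7.85% of all genes. Between exposed groups, 1 of 9 was called at 1 day against immediately after noise, where 8.39% of all genes were, and 3 of 9 at 7 days against 1 day, where 9.35% were. At an unadjusted p under 0.05 these were 4 of 9, beside 24.4% of all genes, and 6 of 9, beside 25.8%. At 14 days against 7 days, limma called 0 of 9 core clock genes and 0% of all genes, and 1 core clock gene had an unadjusted p under 0.05, beside 2.1% of all genes.

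Groups whose arrays did not overlap were counted in the same way. Against controls, 2 core clock genes did not overlap immediately after noise, 2 at 1 day, 3 at 7 days and 2 at 14 days, and the shares of all genes were 21.2%, 22.6%, 12.8% and 14.2% in that order. At 1 day against immediately after noise 4 of 9 did not overlap, with 29.4% of all genes. Between 7 days and 1 day 5 of 9 did not overlap, with 23.8% of all genes, and at 14 days against 7 days 1 of 9 did not, with 4.48% of all genes. The median difference of the 9 genes was -0.18 at 7 days against 1 day, beside 0.02 for all genes tested, and it lay between -0.11 and 0.11 in the other 6 comparisons. The deviations of each gene from its control mean are shown over time in the plot of differences from control.

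**Figure D1:**
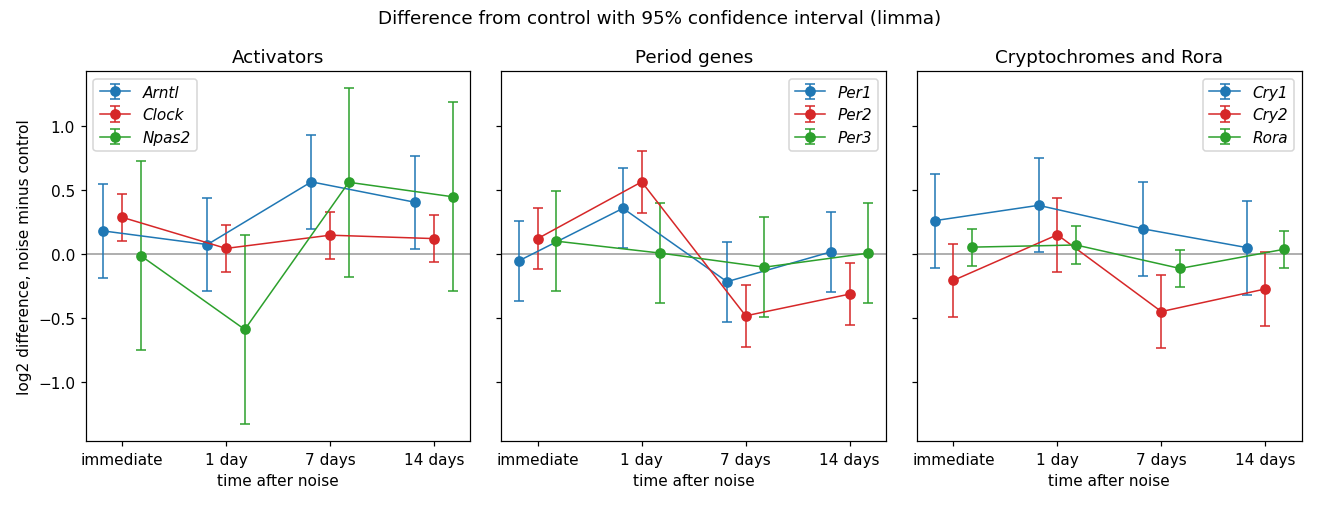
Log2 difference of each noise-exposed group from the unexposed controls (y axis) at the 4 times after noise (x axis), for the activators, the Period genes, and the Cryptochromes with Rora; points are group differences and bars are 95% confidence intervals from limma, 3 arrays per group. Per2 is the gene whose interval lies above 0 at 1 day, at 0.56, and below 0 at 7 and 14 days.

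Per2, a Period repressor on chromosome 1 (91415977 to 91459351, GRCm38.p6), had 7.73, 7.6 and 7.6 log2 units in the 3 control mice. It had 7.79, 7.89 and 7.6 immediately after noise and 8.2, 8.39 and 8.02 at 1 day. It had 7.17, 7.07 and 7.23 at 7 days and 7.12, 7.34 and 7.52 at 14 days. Every 1-day array lay above every array of the other 4 groups, and every 7-day and 14-day array lay below every control array. In the order of group means, 1 day (8.20 ± 0.19, SD, n = 3 each) came first, then immediately after noise (7.76 ± 0.15), control (7.64 ± 0.08), 14 days (7.33 ± 0.20) and 7 days (7.16 ± 0.08). The 1-day and immediate groups did not overlap, nor did the controls and the 14-day group, while the immediate group overlapped the controls and the 14-day group overlapped the 7-day group.

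At 1 day Per2 was 0.56 ± 0.11 above controls on the log2 scale (SE, limma; 95% interval 0.32 to 0.80, 1.47-fold, adjusted p = 0.0161). With the sex of the mice as a term in the fit, the difference was 0.74 with an adjusted p of 0.0369. That call was lost without control replicate 2 (adjusted p = 0.0573), control replicate 3 (0.0704) or 1-day replicate 2 (0.0901), where the difference was 0.54, 0.54 and 0.47. Set against the immediate group, Per2 at 1 day was higher by 0.44 ± 0.11 (limma adjusted p = 0.0274, and 0.0182 with the sex term). That call was lost without immediate replicate 1 or 3 (adjusted p = 0.059 and 0.121, difference 0.46 and 0.36) and without 1-day replicate 1 or 2 (0.0615 and 0.115, difference 0.44 and 0.35). Between 7 days and 1 day Per2 differed by -1.05 ± 0.11 (95% interval -1.29 to -0.81), or 0.484 times the 1-day level (limma adjusted p = 0.000556, and 0.0017 with the sex term). This last call held without any 1 of the 15 arrays, over a range from -1.14 to -0.95. Below controls, the difference was -0.49 ± 0.11 at 7 days (limma adjusted p = 0.173) and -0.32 ± 0.11 at 14 days (0.537), and neither was called although the groups did not overlap. The sex term was estimated only from the groups that held both sexes, the immediate, 7-day and 14-day groups. All controls were female and all 1-day mice male, so the part of sex in a 1-day difference was not tested directly.

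The other probe sets of Per2 had the same sign in both directions with smaller sizes. Called over all 26207 probe sets above the filter, all 3 probe sets of Per2 were lower at 7 days than at 1 day, by -1.05, -0.45 and -0.47. The second probe set had 7.42, 7.62 and 7.21 at 1 day, against 7.07, 7.01 and 6.9 immediately after noise, a difference of 0.42 ± 0.12 (limma adjusted p = 0.0441). Against controls at 1 day, it differed by 0.26 ± 0.12 and the third by 0.35 ± 0.14, and limma called neither (adjusted p = 0.284 and 0.207). Late after noise both overlapped the controls, unlike the representative probe set. The second differed from controls by -0.18 at 7 days and -0.22 at 14 days, and the third by -0.12 and -0.04, with no call.

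**Figure D2:**
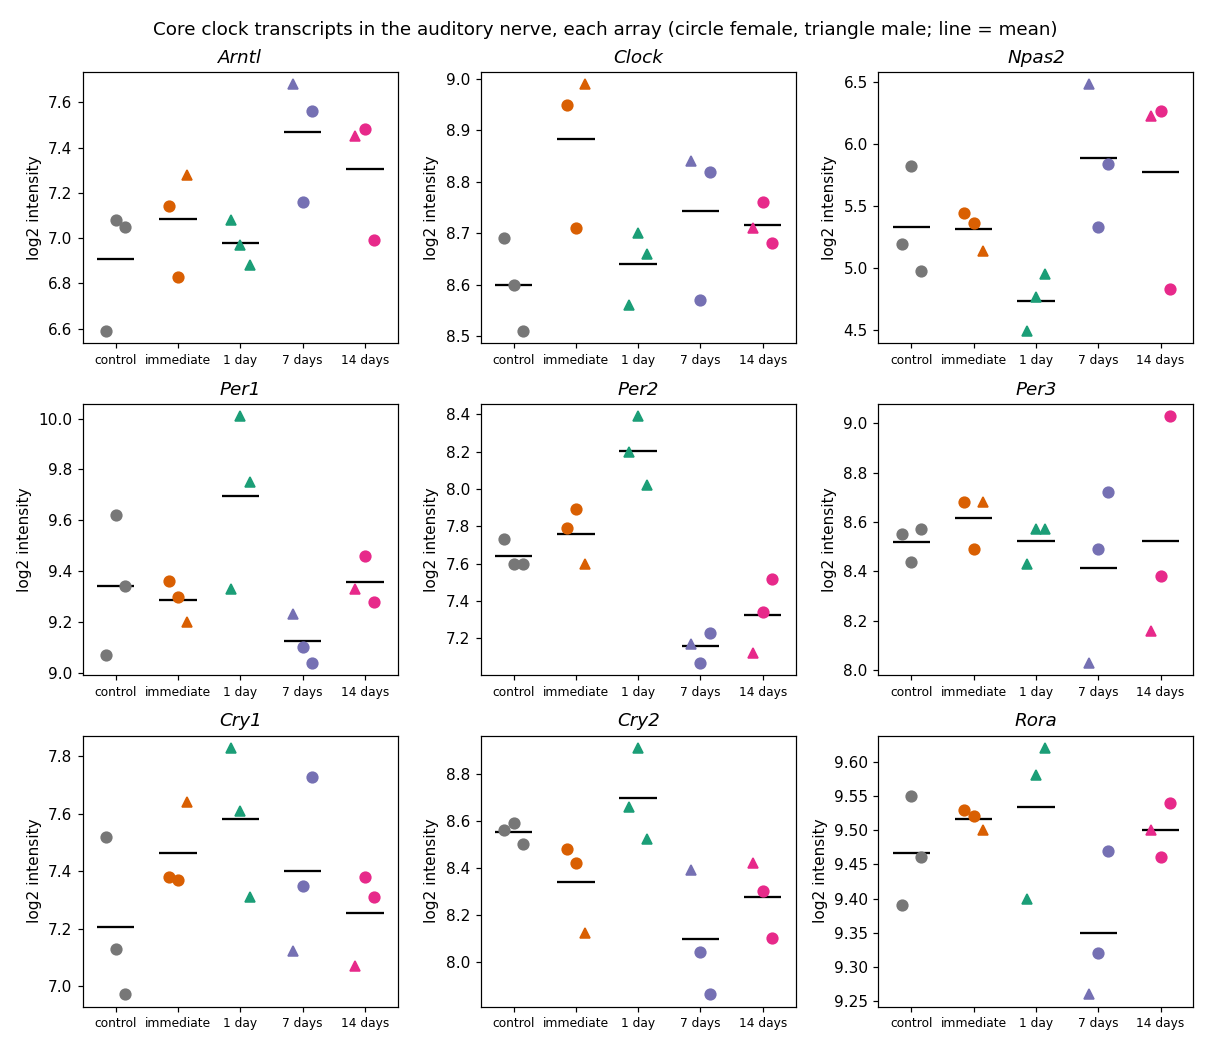
Log2 intensity (y axis, a scale of its own in each panel) of the representative probe set of each core clock gene on every array, by group (x axis); circles are females, triangles are males and the line is the mean of 3 arrays. Per2 stands highest at 1 day, between 8.02 and 8.39, and at 7 and 14 days all its arrays lie under the lowest control array, 7.6.

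Per1, a Period gene known to respond quickly to light and cAMP signals (chromosome 11, 69095108 to 69109965), had 9.07, 9.62 and 9.34 in controls and 9.36, 9.3 and 9.2 immediately after noise. At 1 day it had 9.33, 10.01 and 9.75. At 7 days it had 9.23, 9.1 and 9.04, and at 14 days 9.33, 9.46 and 9.28. The 1-day arrays were spread widely, with replicate 1 inside the control range and the other two above it, and every 7-day array lay below every 1-day array. The order of means was 1 day, 14 days, control, immediate and 7 days, and all neighbours in that order overlapped.

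Per1 at 7 days differed from its 1-day level by -0.57 ± 0.15 (95% interval -0.89 to -0.26, limma adjusted p = 0.0258). The call was lost with the sex term (adjusted p = 0.0843), where the difference was as large, at -0.58. It was also lost without 1-day replicate 2, where the difference was -0.42 (adjusted p = 0.121). The same held without 1-day replicate 3, 7-day replicate 2 or 7-day replicate 3, with adjusted p of 0.0735, 0.0682 and 0.0571. The differences of Per1 from controls immediately after noise and at 1 day are named after its values were seen. Immediately after noise it differed from controls by -0.06 ± 0.15 (95% interval -0.37 to 0.26), and without control replicate 2 the difference was 0.082. In the same group, 8 of 11 tested genes of a list of cAMP and activity response genes were higher than in controls, with a median difference of 2.01 beside -0.02 for all genes tested. At 1 day Per1 differed from controls by 0.35 ± 0.15 (limma adjusted p = 0.214), and without 1-day replicate 1, by 0.54 (0.0371). At 14 days it lay 0.23 ± 0.15 above the 7-day level, with no overlap of the arrays and no call.

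Per3, whose promoter holds 2 D-boxes (chromosome 4, 150997018 to 151044707), showed no called difference. Its representative probe set averaged 8.52 ± 0.07 in controls, 8.62 ± 0.11 immediately after noise, 8.52 ± 0.08 at 1 day, 8.41 ± 0.35 at 7 days and 8.52 ± 0.45 at 14 days (SD, n = 3 each). The arrays of all 5 groups overlapped, and the spread in the 2 late groups, from 8.03 to 8.72 at 7 days and from 8.16 to 9.03 at 14 days, was wider than in the earlier ones. In both late groups the lowest array was the male one. The sex term of Per3, males minus females, was -0.34 ± 0.14, with an unadjusted p of 0.0255 and an adjusted p of 0.989 over all genes. The 6 probe sets of Per3 did not move alike. At 7 days 3 of the dimmer ones lay below every control array with differences from controls of -0.41, -0.46 and -0.37, while the other 3 lay between -0.11 and 0.16, and limma called none.

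Cry2, a Cryptochrome repressor (chromosome 2, 92403646 to 92434085), had 8.56, 8.59 and 8.5 in controls and 8.48, 8.42 and 8.12 immediately after noise. It had 8.66, 8.91 and 8.52 at 1 day and 8.39, 8.04 and 7.86 at 7 days. At 14 days it had 8.42, 8.3 and 8.1. Every immediate, 7-day and 14-day array lay below every control array, while the 1-day arrays overlapped the controls. The order of means was 1 day (8.70 ± 0.20), control (8.55 ± 0.05), immediate (8.34 ± 0.19), 14 days (8.27 ± 0.16) and 7 days (8.10 ± 0.27), and the only neighbours whose arrays did not overlap were the immediate group and the controls.

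Cry2 at 7 days differed from its 1-day level by -0.60 ± 0.13 (95% interval -0.89 to -0.31, limma adjusted p = 0.015). The call was lost with the sex term (adjusted p = 0.0793, difference -0.53) and without 1-day replicate 2 (0.0757, difference -0.49). Below controls, the differences were -0.21 ± 0.13 immediately, -0.45 ± 0.13 at 7 days and -0.28 ± 0.13 at 14 days, and limma called none (adjusted p = 0.495, 0.277 and 0.645). At 1 day against immediately after noise the difference was 0.36 ± 0.13 (limma adjusted p = 0.116).

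Cry1, the other Cryptochrome (chromosome 10, 85131700 to 85185054), averaged 7.21 ± 0.28 in controls, 7.46 ± 0.15 immediately after noise and 7.58 ± 0.26 at 1 day. It averaged 7.40 ± 0.31 at 7 days and 7.25 ± 0.16 at 14 days (SD, n = 3 each). Its arrays ran from 6.97 to 7.83 over the series, every pair of groups tested overlapped, and limma called no difference. At 7 days Cry2 lay below all controls and Cry1 did not, and the difference between the 2 genes was not tested.

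Among the activators, no difference was called when each gene was taken by its representative probe set. By that probe set, the late groups had the highest mean levels of Arntl and Npas2. Arntl, the partner that Clock and Npas2 share (chromosome 7, 113178471 to 113314126), had 6.59, 7.08 and 7.05 in controls and 7.14, 6.83 and 7.28 immediately after noise. It had 7.08, 6.97 and 6.88 at 1 day, 7.68, 7.16 and 7.56 at 7 days, and 7.45, 7.48 and 6.99 at 14 days. Every 7-day array lay above every control array and above every 1-day array, while replicate 3 at 14 days lay inside the control range. In the order of means, 7 days (7.47 ± 0.27) was followed by 14 days (7.31 ± 0.27), immediate (7.08 ± 0.23), 1 day (6.98 ± 0.10) and control (6.91 ± 0.27), and all neighbours overlapped. At 7 days Arntl lay 0.56 ± 0.17 above controls (95% interval 0.19 to 0.93, limma adjusted p = 0.277) and 0.49 ± 0.17 above the 1-day level (0.0853). Without 7-day replicate 2 the second of these was 0.64 and was called (0.0487). The second, dimmer probe set of Arntl differed by 0.17 ± 0.12 and -0.08 ± 0.12 in those comparisons, so the probe sets disagreed on the size and, in the second comparison, on the sign. Its highest group mean was that at 1 day, 5.52, and at 14 days it averaged 5.29, against 5.26 in controls.

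Npas2, which can stand in for Clock (chromosome 1, 39193702 to 39363240), had 5.19, 5.82 and 4.97 in controls and 5.44, 5.36 and 5.13 immediately after noise. It had 4.49, 4.76 and 4.95 at 1 day and 6.48, 5.33 and 5.84 at 7 days. At 14 days it had 6.22, 6.26 and 4.83. The 1-day arrays lay below all control, immediate and 7-day arrays, and the 14-day group was split, with replicate 3 below every control array. The 1-day arrays lay around the level of the filter on low values, 4.698, so the size of a difference from them is uncertain. The background level itself was not measured. The difference at 7 days against 1 day was 1.15 ± 0.35 (95% interval 0.41 to 1.89), with a limma adjusted p of 0.0503, just outside the threshold. It was called without control replicate 2 (0.0485), 7-day replicate 2 (0.0383) or any 1 of the 14-day arrays (0.0495, 0.0469 and 0.0153 for replicates 1, 2 and 3). In the fit over every probe set, both probe sets of Npas2 were called in that comparison, at 1.15 (adjusted p = 0.0484) and 0.67 ± 0.17 (0.0266). At 14 days the second probe set was not above controls, with a mean of 5.09 against 5.12. At 1 day Npas2 differed by -0.59 ± 0.35 from controls and by -0.58 ± 0.35 from the immediate group, and limma called neither (adjusted p = 0.401 and 0.334).

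Clock, the usual partner of Arntl in the activator pair (chromosome 5, 76209868 to 76305603), varied least among the activators. It had 8.95, 8.71 and 8.99 immediately after noise, against 8.69, 8.6 and 8.51 in controls. The immediate arrays lay above all controls, with a difference of 0.28 ± 0.09 (limma adjusted p = 0.136). At 1 day it had 8.56, 8.7 and 8.66, all below the immediate arrays, and that difference was -0.24 ± 0.09 (limma adjusted p = 0.0936). Without immediate replicate 2 it was -0.33 and was called (0.0406). At 7 and 14 days its arrays ran from 8.57 to 8.84 and from 8.68 to 8.76, and both groups overlapped the controls. The second probe set of Clock lay above all controls at both times, by 0.12 ± 0.06 and 0.13 ± 0.06. Limma called neither (adjusted p = 0.461 and 0.555), and the dimmer probe sets overlapped the controls at both times. With sample weights in the fit, the difference immediately after noise was called (difference 0.32, adjusted p = 0.0233), which no other setting or left-out array gave. The other 3 probe sets of Clock did not show that difference: they stood at -0.01, -0.04 and -0.01 from controls immediately after noise, with overlap. At 1 day against immediately after noise they differed by -0.02, -0.05 and 0.27, and the last, the dimmest, was opposite in sign to the representative with no overlap and no call (limma adjusted p = 0.11).

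Rora, which codes for the receptor RORα that activates Arntl (chromosome 9, 68653404 to 69388246), had 9 probe sets that fell into different patterns. The brightest ran from 9.26 to 9.62 over all arrays, its groups overlapped, and it was called in no comparison. Another had 7.93, 7.93 and 7.88 at 7 days, against 8.37, 8.57 and 8.43 in controls and 8.3, 8.5 and 8.46 at 1 day. Its 7-day arrays lay below all control and 1-day arrays, with a difference of -0.54 ± 0.08 from controls (95% interval -0.71 to -0.38, limma adjusted p = 0.0222 over all probe sets). It was the only called difference from controls at 7 days among the 29 probe sets, where 0.0687% of all probe sets were called. Relative to 1 day, 3 probe sets of Rora were lower at 7 days, by -0.46, -0.51 and -0.55, and the other 6 were not called. One more, at 1 day against immediately after noise, was lower by -0.36 ± 0.10 (limma adjusted p = 0.0456). That probe set averaged 7.75 in controls, 8.19 immediately after noise and 7.83 at 1 day. Its immediate arrays lay above all controls, with a difference of 0.43 that limma did not call. Which Rora transcripts each probe set reads was not analysed here.

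Taking all 29 probe sets together, the comparison of 7 days with 1 day held most of the calls. In it 22 probe sets had a lower mean at 7 days and 7 a higher one, and 10 were called, 8 lower and 2 higher, from 5 genes. Probe sets of 1 gene are not separate members, and of the 22 lower ones 8 were of Rora and 6 of Per3. The share of all probe sets with a lower mean was not counted. Of all 26207 probe sets, 8.5% were called there. At 1 day, 1 of 29 was called against controls and 3 against the immediate group, beside 2.46% and 7.6% of all probe sets. None was called immediately after noise against controls, where 1.1% of all were, or at 14 days against either controls or 7 days, where limma called 0% of all.

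**Figure D3:**
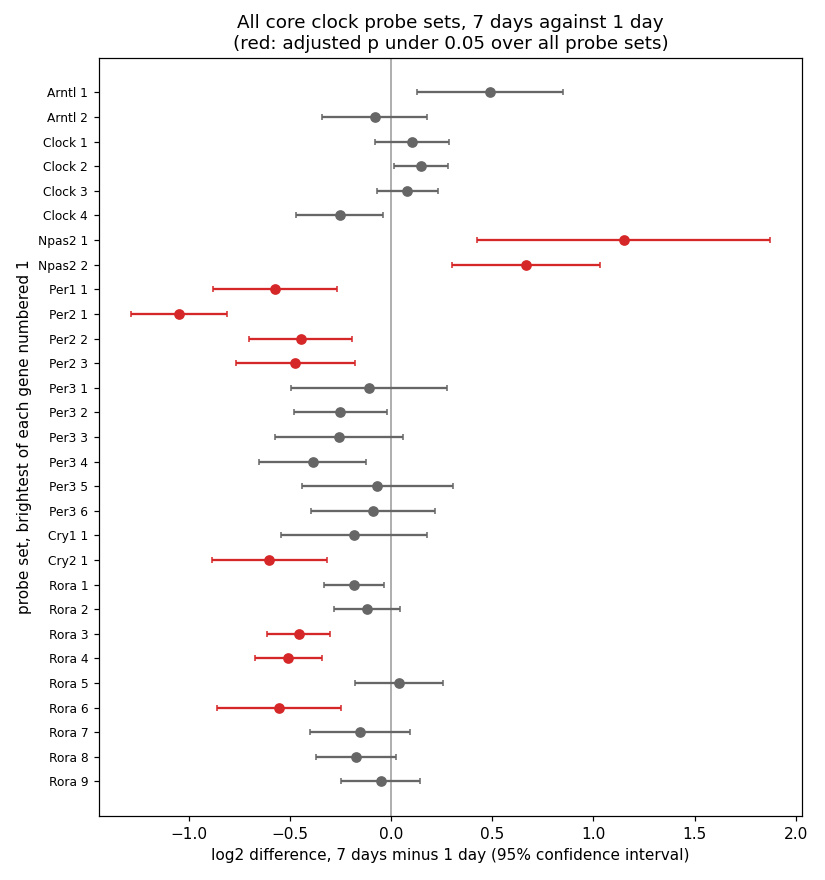
Log2 difference of 7 days minus 1 day (x axis) with 95% confidence intervals for the 29 core clock probe sets (y axis, each gene's brightest numbered 1), 3 arrays per group; red marks an adjusted p under 0.05 over all probe sets. Both Npas2 probe sets are called above 0, and the Per1, Per2 and Cry2 probe sets and 3 of the 9 for Rora are called below it.

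To set the 2 arms side by side, each gene's deviation from its control mean was averaged over the 3 activators and over the 5 Period and Cryptochrome genes on each array, as a description with no test. At 1 day the activators lay at -0.23, -0.13 and -0.11 and the Period and Cryptochrome genes at 0.24, 0.45 and 0.18. At 7 days the activators lay at 0.72, 0.08 and 0.46 and the Period and Cryptochrome genes at -0.26, -0.24 and -0.14. The arm averages thus stood on opposite sides of the control mean on all 6 of these arrays. The Period and Cryptochrome average was on the high side at 1 day and on the low side at 7 days. Single genes did not all follow. At 1 day the activator average was low through Npas2, whose arrays there lay around the level of the filter on low values. Arntl (mean 6.98, controls 6.91) and Clock (8.64, controls 8.60) were not lower there. At 7 days Cry1 (7.40, controls 7.21) lay above controls, unlike Per1, Per2, Per3 and Cry2. At 14 days 2 arrays resembled the 7-day ones, with activators at 0.52 and 0.56 and repressors at -0.23 and -0.08, while replicate 3 had -0.11 and -0.0047. Immediately after noise the activators lay at 0.23, 0.02 and 0.19 and the repressors at 0.09, 0.04 and -0.0047. The controls themselves ranged from -0.12 to 0.22 in activators and from -0.06 to 0.03 in Period and Cryptochrome genes. The activator mean minus the Period and Cryptochrome mean was 0.11 ± 0.11 immediately, -0.45 ± 0.14 at 1 day, 0.63 ± 0.34 at 7 days and 0.43 ± 0.46 at 14 days (SD, n = 3 each), with ± 0.18 in controls.

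**Figure D4:**
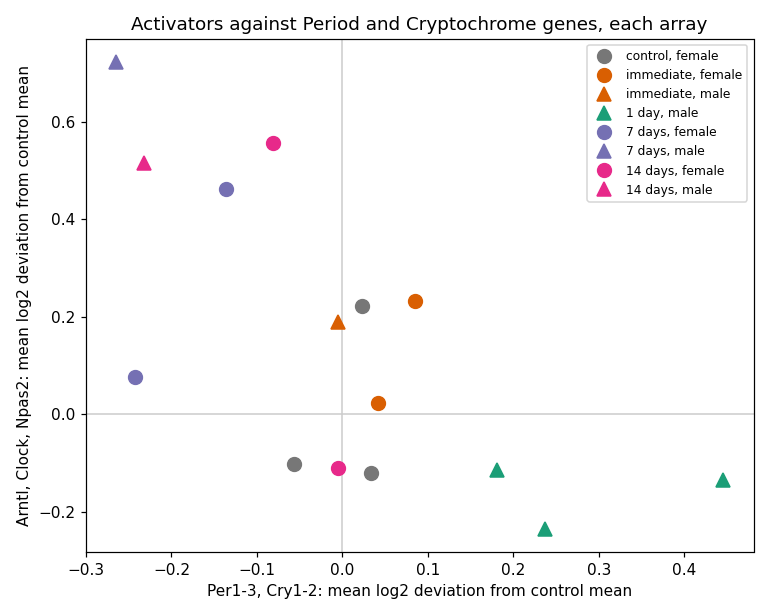
Mean log2 deviation from the control mean of the activators Arntl, Clock and Npas2 (y axis) against that of Per1, Per2, Per3, Cry1 and Cry2 (x axis), 1 point for each array; circles are females and triangles are males. The 3 arrays at 1 day lie at lower right, between 0.18 and 0.45 on the x axis, and the 3 at 7 days lie left of 0, between -0.26 and -0.14.

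Over the 15 arrays the level of Arntl was correlated positively with that of Npas2 and negatively with that of Per2. The correlation with Npas2 was r = 0.72 (permutation p = 0.00276, adjusted over the 8 other members 0.0221) with Spearman's rho 0.67 (adjusted permutation p = 0.0333). With Per2 it was r = -0.65 (permutation p = 0.00948, adjusted 0.0379) with rho -0.71 (adjusted permutation p = 0.0333). Without the 2 arrays farthest from the median of Arntl, r was 0.71 and -0.68. The permutations shuffled all 15 arrays across the 5 groups, so their p-values do not separate differences between groups from a relation within them. After the group means were subtracted, r was 0.60 for Npas2 and -0.40 for Per2, and these values were not tested. With each gene taken as the mean of its probe sets, neither relation passed the adjusted permutation test. Each relation also rested on a few arrays. Without 7-day replicate 1, 14-day replicate 1 or 14-day replicate 2 neither passed the adjusted permutation test. The relation with Per2 did not pass it without any 1 of 4 other arrays. With Cry2, r was -0.45 over all arrays (adjusted permutation p = 0.212) and 0.20 after the group means were subtracted. The other 5 members, Clock, Per1, Per3, Cry1 and Rora, had r between -0.43 and 0.41 and none passed the test.

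By the same measure, the genes outside the core clock whose pattern was most like that of Arntl, among 13635 genes over 15 arrays, were Gsr (r = 0.89), Mpp1, Llgl1, Syne1 and Rnf44 (0.84 to 0.83). Most opposed were Xrn2 (-0.75), Inmt, Rnf128, Cryab and Nr1d2, which codes for the REV-ERB repressor beta (-0.72). Most like Per2 were Ctla2a (0.93), Rnf4, Mir22hg, Ccdc86 and Pcf11 (0.91). Most opposed to Per2 were Iqcc (-0.94), Klhl8, Oprl1, Crebzf and Ikbip (-0.91). These values are descriptions of 15 arrays that share their groups.

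The other genes of the clock pathway were taken from 2 lists, the secondary loop with the output factors (11 of 12 tested) and the proteins that modify clock proteins (9 of 10 tested). Of the first list, 2 genes were lower at 7 days than in controls, Dbp and Ciart, and none was higher. The list's median difference there was -0.23, beside 0.01 for all genes tested. Dbp, the D-box activator that Arntl and Clock drive, had 8.68, 8.47 and 8.87 at 7 days, against 10.63, 10.57 and 10.43 in controls, a difference of -1.87 ± 0.19 (limma adjusted p = 0.000775). At 14 days it had 9.61, 9.2 and 10.25, still below the controls without overlap, and was not called (limma adjusted p = 0.352). Ciart, a repressor of the activator pair, had 7.19, 7.09 and 6.99 at 7 days, against 8.09, 8.55 and 8.18 in controls, a difference of -1.18 ± 0.13 (limma adjusted p = 0.00107). The 7-day arrays of both lay below all controls, as did those of Cry2 and of the representative probe set of Per2 with smaller differences.

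Relative to 1 day, 4 of the 11 were lower at 7 days, Nr1d1, Dbp, Bhlhe40 and Ciart, where 9.35% of all genes were called. Bhlhe40, another repressor of the activator pair, is named after its values were seen. At 1 day against immediately after noise Ciart alone was called, as higher, where 8.39% of all genes were called. Nr1d1, which codes for REV-ERB alpha, had 6.56, 7.32 and 6.73 at 7 days, against 7.62, 8.5 and 8.43 at 1 day, a difference of -1.31 ± 0.27 (limma adjusted p = 0.00877). Against controls at 7 days the difference was -1.07 ± 0.27 and was not called (limma adjusted p = 0.223). Nfil3, the D-box repressor, was higher immediately after noise (7.38, 7.21 and 7.58, against 6.03, 6.67 and 6.75 in controls) by 0.91 ± 0.20 (limma adjusted p = 0.0415). At 1 day it was higher than in controls by 0.94 ± 0.20 (limma adjusted p = 0.0193), and with the sex term neither difference was called (0.0752 and 0.183). Of the modifiers, Gsk3b, a kinase that acts on several clock proteins, was the only one called. It had 10.32, 10.38 and 10.33 at 1 day, against 10.02, 10.05 and 9.98 in controls, a difference of 0.33 ± 0.06 (limma adjusted p = 0.00899, and 0.121 with the sex term). Of 8 glucocorticoid targets, limma called none in any comparison with controls, and Sgk1 alone was lower at 7 days than at 1 day, by -0.35 ± 0.10 (limma adjusted p = 0.0336, and 0.19 with the sex term).

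**Figure D5:**
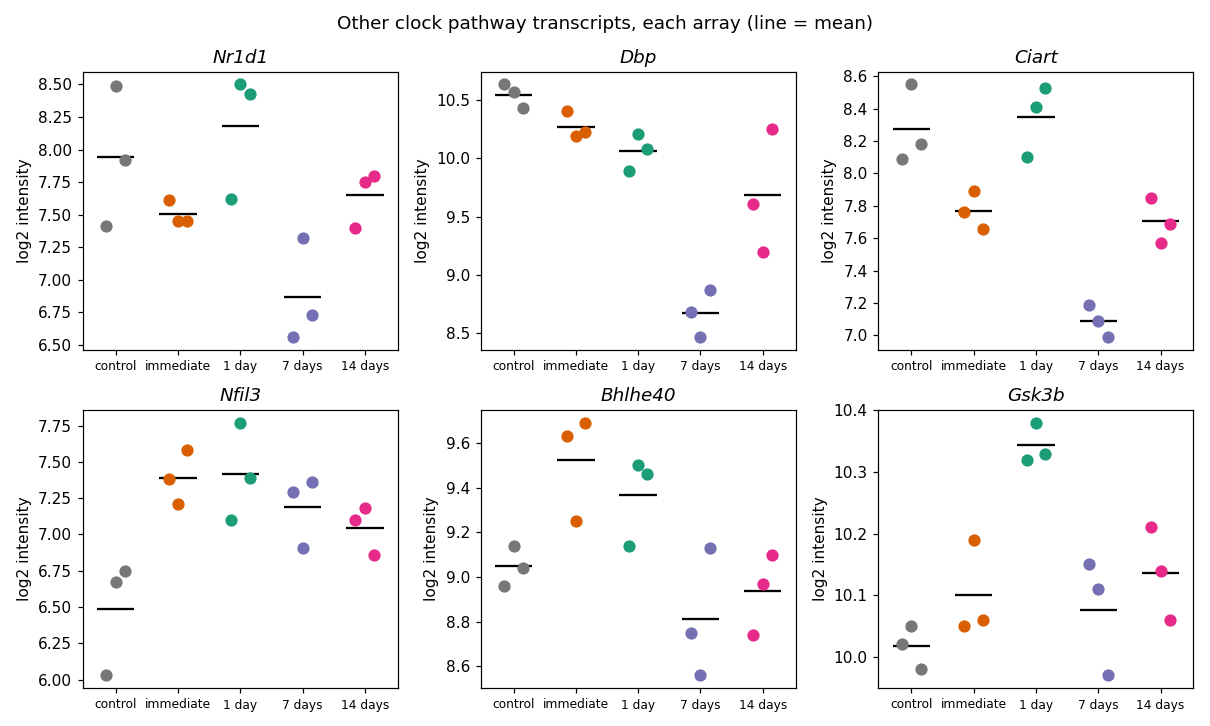
Log2 intensity (y axis, a scale of its own in each panel) of 6 other clock pathway genes on every array by group (x axis), with the line at the mean of 3 arrays. Dbp and Ciart lie lowest at 7 days, with Dbp between 8.47 and 8.87 there against 10.43 to 10.63 in controls.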

How the data were processed

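RNA of 15 auditory nerve samples, 3 in each of 5 groups, was measured on single-colour Affymetrix arrays. The authors deposited a table of log2 intensities, 1 column per array and 45101 probe sets, and the submitters' processing notes name RMA, MAS5 and Affymetrix Expression Console, with no version or role, so the method behind the values is unknown. Symbols came from the platform annotation: 34945 probe sets had 1 gene, 932 several, 9160 none, and 64 were controls.

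One probe set per gene, that with the highest mean, was kept, and the lowest 25% of genes by mean (under 4.698) were left out, leaving 13644. limma 3.58.1 in R 4.3.3 fitted the 5 group means with a mean-variance trend. Adjusted p-values (Benjamini-Hochberg) cover all genes tested within each of 7 two-sided comparisons. A second fit took all 26207 probe sets above the filter. The fit was tested on simulated data. Permutation p-values of correlations used 100000 resamples. The labels do not say whether the mice of a group were treated together, and p-values measure the spread between these mice.

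The core clock genes and all lists were chosen with earlier results of these data known. Every core clock gene is named, and differences are printed for 21 of 63 gene comparisons: the 19 that were called or did not overlap, and 2 of Per1 added after its values were seen. Of the other clock lists, genes called against controls, Nr1d1 and Dbp are named. Of the Schwann cell, bone and neuron markers, those called at 1 day against controls are named. Neuron markers called at 1 day against the immediate group are named as well. Same-numbered replicates did not deviate together (mean r 0.05 over 30 pairs, lowest -0.33), so the numbers were not taken to pair the samples.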

Additional observations from a re-analysis of the deposited data

Results flagged for a closer look

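Differences between 2 times after noise passed their own test for 3 genes of the core clock. Of all genes tested, 8.39% were called at 1 day against immediately after noise and 9.35% at 7 days against 1 day. Per2 at 1 day differed from immediately after noise by 0.44 on the log2 scale, and at 7 days from 1 day by -1.05. Per1 and Cry2 at 7 days differed from 1 day by -0.57 and -0.60. The 1-day mice were all male, and 7 of 10 macrophage markers were higher at 1 day than in controls. With sex in the fit, the differences at 7 days from 1 day were -0.58 for Per1 and -0.53 for Cry2, and neither was called (limma adjusted p = 0.0843 and 0.0793), while both differences of Per2 were called. The 1-day group held no female, so the sex term came from other groups. The part of sex in a 1-day difference was not tested directly.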

How the results depend on the processing

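The comparisons of core clock genes were repeated under 12 other settings and without each of the 15 arrays. Of 1667 differences compared, 50 changed sign, none of them called, and the largest of those was 0.15 in size in the fit over 15 arrays. Among the printed differences 1 did, Per1 immediately after noise against controls, which was -0.06 over all arrays, -0.19 without control replicate 1 and 0.082 without control replicate 2. Per2 at 7 days against 1 day was called in every setting and without each array, with adjusted p up to 0.00806. Per2 at 1 day against controls was called in all 11 settings that could be fitted, with adjusted p up to 0.0493, and in 12 of the 15 fits without 1 array, where the difference ran from 0.47 to 0.65.

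Counts of called core clock genes moved as follows. Immediately after noise against controls the count was 0, and 1 (Clock) with array weights. At 1 day against controls it was 1, and 0 to 2 without 1 array, the 0 without control replicate 2, control replicate 3 or 1-day replicate 2, and the 2 (Per1, Per2) without 1-day replicate 1. At 7 days against controls it was 0, and 1 (Rora) with every probe set by itself. At 1 day against immediately after noise it was 1, and 2 with every probe set by itself, with the replicate block (Per2 and Cry2) or with only the groups compared, 4 with array weights, and 0 to 2 without 1 array. At 7 days against 1 day it was 3, and 1 (Per2) with the sex term or with only the groups compared, 5 with the mean over probe sets or every probe set by itself, and 1 to 4 without 1 array, the 1 without 1-day replicate 2. Across the 5 groups it was 1, and 2 with the filter at 50%, array weights, the replicate block, quantile normalization or a common 75th percentile, 3 with every probe set by itself, and 1 to 2 without 1 array. The 2 correlations with Arntl became 0 with the mean over probe sets, and 0 to 2 without 1 array. The replicate block changed no other count of core clock calls by over 1.5 times. The cause of these moves was not tested.

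Over all genes, the count called at 1 day against controls was 434, and 75 with the sex term, 1106 with array weights and 112 to 582 without 1 array. At 7 days against 1 day it was 1276, and 449 with the sex term, 200 with only the groups compared, 710 with array weights and 429 to 1329 without 1 array. Immediately after noise it was 127, and 79 with the sex term, 246 with every probe set by itself, 757 with array weights, 8 with the female arrays only and 29 to 171 without 1 array. At 1 day against immediately after noise it was 1145, and 652 with the sex term, 1898 with array weights and 382 to 1311 without 1 array. At 7 days against controls it was 3, and 7 with the filter at 50%, 16 with every probe set by itself, 1 with only the groups compared and 2 to 50 without 1 array. Across the 5 groups it was 921, and 435 with the sex term, 1679 with every probe set by itself, 1798 with array weights and 307 to 1275 without 1 array. The 1-day group held no female, so the female arrays alone gave no value for it. The background level was not measured, and array values near the filter may lie close to it.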
